A study of Mus musculus with 2 samples.

Results

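The regions described here are promoter peaks of the chromatin remodeller SRCAP that were found with an antibody against SRCAP itself and not with an antibody against its fluorescent tag. A peak was included when it stood in the SRCAP antibody list, overlapped no peak of the GFP antibody list by 1 bp or more, and had its midpoint in a promoter window, which ran from 1000 bp before to 500 bp after a transcription start site (TSS), for any transcript of GENCODE vM21 on GRCm38 (mm10). There were 2850 such SRCAP-only promoter peaks, called members here. They made up 10.1% of the 28167 peaks of the list (95% Wilson interval 9.77 to 10.5) and 32.5% of its 8775 promoter peaks (31.5 to 33.5). Of its 11919 peaks with no GFP counterpart, 23.9% were at promoters (23.2 to 24.7), a lower share than the 8775 of 28167 in the whole list. The mismatch was alike from the other side. Of the 8718 promoter peaks of the GFP list, 32.5% overlapped no SRCAP peak (31.5 to 33.5). All intervals given cover counting error only, because peaks and genes are not replicates.

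Both lists came from CUT&RUN in SYAT cells, a mouse embryonic stem cell (mESC) line made from CGR8, in which YPet and the auxin-inducible degron AID were knocked in at the 3′ end of both Srcap alleles and the auxin receptor OsTir1 is expressed. Both libraries therefore carried tagged SRCAP. The labels state that SYAT cells were kept in Auxinole as the control condition against basal SRCAP degradation (the dose differs between the labels and the study's methods), and they give no treatment for either library by itself. One library (n = 1) was made with the GFP antibody ab290, which binds the YPet tag, and the other (n = 1) with the SRCAP antibody ESL-103. Antibody and library cannot be told apart, no test between antibodies was possible, and without read counts in the lists the sequencing depth is unknown.

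SRCAP is the ATPase of a multisubunit complex that replaces histone H2A by the variant H2A.Z in nucleosomes next to promoters. In CUT&RUN, a nuclease tethered to an antibody cuts out the DNA next to the bound protein, so a peak marks DNA near the antigen. Vertebrate promoters are commonly grouped by their CpG content, with CpG-rich promoters typical of broadly used genes and of developmental genes held by Polycomb. Many are bound by a small set of promoter factors, among them NRF1, NF-Y, ETS factors and SP factors, while CTCF binds at boundaries of chromatin domains and at some promoters.

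Sequences of 7 members are printed first, because the sets are compared by their sequence content further on. They were chosen among the members of highest score, a value the authors gave each peak, and among those of highest score with a CTCF or NRF1 consensus. Each is the stretch of the peak upstream of the TSS and outside annotated exons, at most 300 bp, read 5′ to 3′ on the gene's strand from GRCm38. Capitals mark a match on either strand to a searched consensus, which is GCGCATGCG for NRF1, ACTACAATT for ZNF143 and CCAATCA for NF-Y. CTCF was searched with a longer degenerate consensus and is given by name.

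The Snrnp70, Ylpm1 and Gpatch11 promoters are shown for NRF1, and the Gpatch11 window is shared with Heatr5b. Snrnp70 encodes the U1 small nuclear ribonucleoprotein component U1-70K and held matches in 3 places of the printed stretch.

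Snrnp70, chr7:45395743-45396042, minus strand: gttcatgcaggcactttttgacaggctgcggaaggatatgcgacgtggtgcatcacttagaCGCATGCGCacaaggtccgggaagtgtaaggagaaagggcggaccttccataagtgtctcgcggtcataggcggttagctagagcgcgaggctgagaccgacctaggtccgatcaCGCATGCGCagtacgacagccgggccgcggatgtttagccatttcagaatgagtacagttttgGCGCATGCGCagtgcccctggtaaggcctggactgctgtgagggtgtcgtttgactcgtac

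Ylpm1, chr12:84996117-84996316, plus strand: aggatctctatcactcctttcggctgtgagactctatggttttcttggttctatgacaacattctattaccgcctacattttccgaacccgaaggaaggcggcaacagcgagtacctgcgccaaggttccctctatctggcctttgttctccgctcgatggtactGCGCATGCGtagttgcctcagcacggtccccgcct

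Gpatch11, chr17:78835365-78835566, plus strand: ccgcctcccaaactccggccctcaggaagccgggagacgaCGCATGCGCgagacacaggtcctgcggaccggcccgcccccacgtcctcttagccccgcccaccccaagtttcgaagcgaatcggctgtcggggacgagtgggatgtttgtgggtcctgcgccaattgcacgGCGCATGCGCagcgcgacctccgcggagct

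The Gosr1 and Trpv2 promoters are shown for CTCF. Gosr1 encodes a Golgi SNARE protein and Trpv2 a cation channel, and the Trpv2 stretch also held an NF-Y match, which comes first in it.

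Gosr1, chr11:76763580-76763735, minus strand: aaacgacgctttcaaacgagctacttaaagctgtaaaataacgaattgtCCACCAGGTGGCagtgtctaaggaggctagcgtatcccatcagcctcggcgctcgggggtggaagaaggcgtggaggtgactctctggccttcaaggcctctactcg

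Trpv2, chr11:62575252-62575545, plus strand: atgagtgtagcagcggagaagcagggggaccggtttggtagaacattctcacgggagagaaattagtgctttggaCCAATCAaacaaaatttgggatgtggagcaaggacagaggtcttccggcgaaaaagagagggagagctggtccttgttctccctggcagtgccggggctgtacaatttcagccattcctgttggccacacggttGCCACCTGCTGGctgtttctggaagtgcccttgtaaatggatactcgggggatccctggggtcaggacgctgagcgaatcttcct

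Zfp128, a zinc finger gene, is shown for ZNF143, and Trappc9, which encodes a subunit of a vesicle tethering complex, for the highest score at a protein-coding promoter. The Trappc9 stretch held none of the consensus sequences searched.

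Zfp128, chr7:12881006-12881176, plus strand: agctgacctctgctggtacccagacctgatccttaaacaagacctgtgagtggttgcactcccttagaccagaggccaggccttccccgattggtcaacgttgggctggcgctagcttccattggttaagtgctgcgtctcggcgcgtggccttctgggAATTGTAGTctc

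Trappc9, chr15:73061205-73061377, minus strand: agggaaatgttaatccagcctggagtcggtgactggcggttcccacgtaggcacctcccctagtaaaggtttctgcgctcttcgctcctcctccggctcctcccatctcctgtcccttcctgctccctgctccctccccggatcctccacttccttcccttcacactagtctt

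SRCAP-only promoter peaks had lower scores and were narrower than the promoter peaks that both antibodies found. Their median score was 36.5 (95% order-statistic interval 35 to 39, interquartile range 28 to 53), against 67 (65 to 67, interquartile range 42 to 103) for the 5925 shared promoter peaks of the same list. The score is a whole number of the authors with a floor of 13 whose meaning was not stated, so it was compared only within the list. Scores at or under 20 were held by 10.1% of SRCAP-only and 2.04% of shared promoter peaks, and scores over 100 by 3.61% and 26.3%. The median width was 224 bp against 335 bp. Among all promoter peaks of the list, the share without GFP peak was 63.2% at scores of 13 to 28, 51.5% at 29 to 36, 39.2% at 37 to 53 and 15.1% (14.1 to 16.2) at 54 or more. The last class is open at the top. Its scores ran up to 392 in SRCAP-only and up to 39255 in shared peaks, so it does not match them by score.

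**Figure D1:**
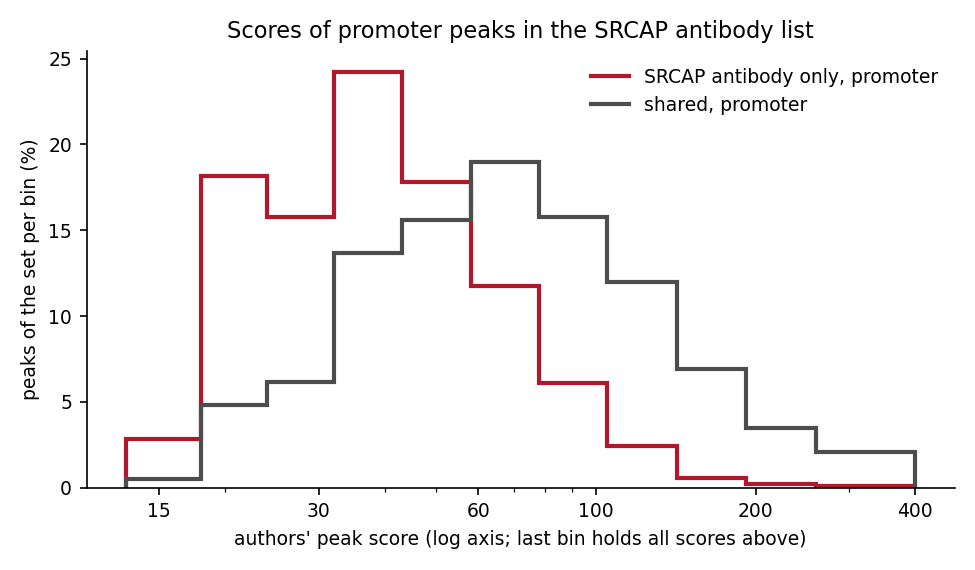
Percentage of peaks (y axis) per class of the authors' peak score (x axis, log scale, where the last bin also holds all higher scores) for 2850 SRCAP-only promoter peaks (red) and 5925 shared promoter peaks of the same list (grey). The SRCAP-only peaks lie at lower scores, with medians of 36.5 and 67, and the ranges overlap widely.

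The 15 members of highest score at protein-coding promoters scored from 166 to 379. The highest was at Trappc9 on chromosome 15, at 73061088 to 73061377, with a score of 379 and its midpoint 29 bp upstream of the TSS. The nearest GFP peak lay 464 bp away and scored 49 in its own list. Sfi1, which encodes a centrosome protein, followed with 265 on chromosome 11, at 3142495 to 3142712, and had a GFP peak 990 bp away.

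Mrpl17, a gene for a mitochondrial ribosomal protein, had a score of 230 on chromosome 7, at 105811117 to 105811368, and no GFP peak within 58789 bp. Abcd4, a transporter gene of the lysosomal cobalamin pathway, had 223 with its midpoint 18 bp upstream of the TSS. Snrnp70 and Fcgr3, which encodes an Fc receptor for IgG, both had 206. Of these 6, Trappc9, Sfi1 and Snrnp70 had a GFP peak within 1 kb.

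Ank1, the ankyrin gene of the red cell membrane skeleton, had 205, and 80.5% of that peak was repeat-masked. Slc6a19, a neutral amino acid transporter of gut and kidney, had 191 in a CpG-poor window. Nelfcd, which encodes a subunit of the negative elongation factor that holds paused RNA polymerase II, had 186 in a CpG-rich window. Further members were at AW822073 (187), Mypop (180), Ylpm1 (176), Zfp128 (176) and Acap2 (166).

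Most SRCAP-only promoter peaks stood far from any GFP peak, and so did other peaks without a counterpart in the other list. The gap from edge to edge was 10000 bp or more for 1561 members (54.8%, 95% Wilson interval 52.9 to 56.6), and 810 had a gap from 1000 bp up to that. Promoter peaks found with the GFP antibody only had such a gap of 10000 bp to the SRCAP list in 52.9%. For distal peaks found with the SRCAP antibody only it was 65.1%. A peak of the other list lay within 1 kb of 17.9% and 7.91% of these sets. A GFP peak lay within 1 kb of 479 members (16.8%, 15.5 to 18.2), of which 152 had a gap of 500 bp or more, 238 of at least 100 and under 500 bp, 85 of 1 to 99 bp and 4 of 0 bp. Of these 479, 179 also had a shared SRCAP peak within 1 kb (37.4%, 33.2 to 41.8). Members with a GFP peak within 1 kb had a median score of 34 (34 to 36) and the other 2371 a median of 38 (35 to 40).

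The peaks that the rule just kept scored from 22 to 59, and those dropped by the smallest overlaps from 18 to 53. In 4 members the gap to a GFP peak was 0 bp. They lay at Smarcb1, a subunit gene of the BAF complex, with a score of 22, at Cdt1, which encodes a DNA replication licensing factor, with a score of 59, at Diaph3, a formin gene, with 29, and at Tm7sf2, a sterol reductase gene, with 24. Outside the rule, promoter peaks at Usp38 (score 53) and Cacna2d4 (score 29) overlapped a GFP peak by 1 bp and the one at Pigs (score 18) by 5 bp. In all, 13 shared promoter peaks overlapped a GFP peak by at most 10 bp. Ending the promoter window 100 bp earlier on both sides would have dropped 147 members, and ending it 100 bp later would have added 133 peaks.

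Around the TSS, the median position of SRCAP-only promoter peaks was nearer to that of the shared peaks than to that of the 2834 promoter peaks found with the GFP antibody only (GFP-only). The midpoint lay at a median of -55 bp (-66 to -49, with an interquartile range of -223 to 60.8), against -69 bp (-75 to -64) for shared promoter peaks and -111 bp (-126 to -92) for GFP-only promoter peaks. Within 100 bp of the nearest TSS lay 38.2% of members, 43.3% of shared and 25.1% of GFP-only promoter peaks. The difference from shared peaks was -5.03 percentage points (95% Newcombe interval -7.20 to -2.83) and that from GFP-only peaks 13.2 points (10.8 to 15.5). The sign of the difference from shared peaks varied between score classes. From the lowest to the highest class it was -6.23 (-11.9 to -0.641), 3.22 (-2.01 to 8.40), -6.37 (-10.7 to -1.96) and 2.53 points (-1.62 to 6.70). Members with midpoints over 500 bp from the TSS made up 12.2%, against 7.02% of shared and 15.7% of GFP-only peaks. By the annotation, 36.3% of member midpoints fell in an exon, 27.5% in an intron and 36.2% outside transcripts.

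**Figure D2:**
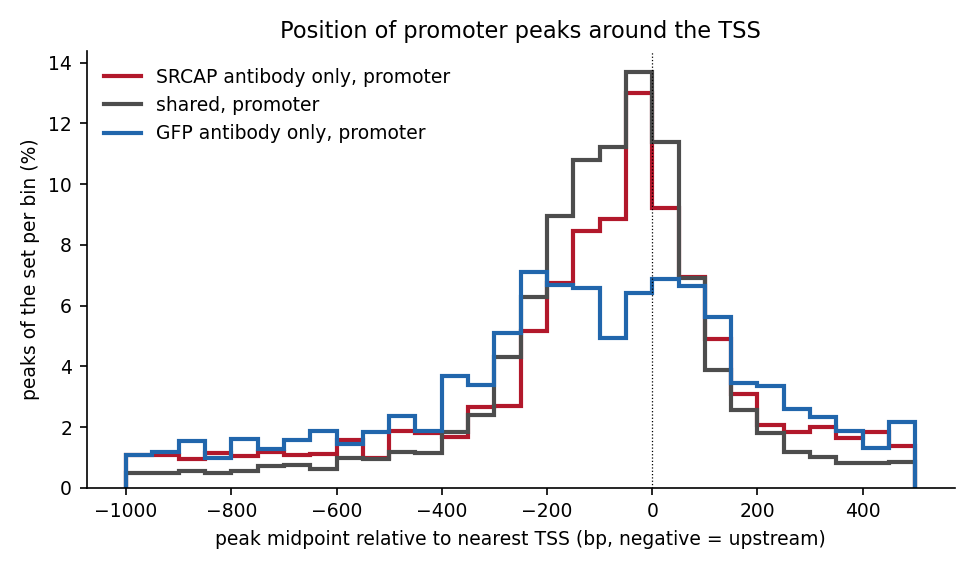
Percentage of peaks (y axis) per 50 bp bin of the distance from the peak midpoint to the nearest TSS (x axis, bp, negative upstream) for SRCAP-only (red), shared (grey) and GFP-only (blue) promoter peaks. SRCAP-only and shared peaks are highest in the 50 bp before the TSS, with medians of -55 and -69 bp, and GFP-only peaks are spread more widely around a median of -111 bp.

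Members lay at 2516 of 21951 protein-coding genes, which is 11.5% of them. Shared promoter peaks lay at 25.8% of the same genes and GFP-only promoter peaks at 11.2%. Of the 2516 genes, 1862 (74.0%, 95% Wilson interval 72.3 to 75.7) had neither a shared promoter peak nor a GFP promoter peak of any kind, 647 (25.7%) also had a GFP promoter peak and 352 (14.0%) also had a shared one. A single member was found at 2391 genes, 2 at 119, 3 at 5 and 4 at 1 gene. That gene was Pde4d, which encodes a cAMP phosphodiesterase and has many alternative promoters, with scores of 23, 33, 108 and 21. The 5 with 3 members were 4931408C20Rik, Csad, Itga6, Sept9 and Tacc2.

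Protein-coding promoters held 2454 members (86.1%), and of the rest 112 were at long intergenic noncoding RNAs, 74 at processed pseudogenes and 60 at antisense transcripts. Divergent pairs of protein-coding genes shared the window of 5.96% of members against 10.1% of shared promoter peaks, a difference of -4.16 points (-5.30 to -2.97). Reads at a divergent or overlapping promoter cannot be assigned to either gene. Chromosome 8 held 7.19% of members (6.30 to 8.20) and 7.78% of shared promoter peaks, against 12.2% of the 9069 distal peaks found with the SRCAP antibody only. Repeat-masked sequence made up at least 50% of the peak in 2.18% of members, 1.37% of shared promoter peaks and 15.2% of those distal peaks.

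In base composition, SRCAP-only promoter peaks were close to shared ones in GC content, lay between shared and GFP-only ones in CpG ratio and were CpG-rich more often than GFP-only ones. The median GC content in 500 bp at the midpoint was 57.0% (56.8 to 57.4) against 57.2% and 53.0%, and the median ratio of observed to expected CpG was 0.594 (0.580 to 0.607) against 0.659 and 0.511. Windows with a GC content of at least 55% and a ratio of at least 0.75 were called CpG-rich. They made up 25.4% of members, 27.7% of shared and 11.5% of GFP-only promoter peaks, and 21.5% of windows at all 132666 annotated TSS positions. The difference from GFP-only peaks was 13.9 points (11.9 to 15.9). That from shared peaks was -2.36 points (-4.30 to -0.381) and changed sign, to 1.50 points (-1.61 to 4.71), when SRCAP peaks with a score under the list's median, 47, were left out. At scores of 54 or more, CpG-rich windows made up 34.4% of members and 30.3% of shared peaks (difference 4.03, 0.168 to 8.04). That class is open at the top and not matched for score. In the lower classes, from the lowest up, the difference was 0.174 (-4.60 to 4.71), 2.07 (-2.52 to 6.64) and -1.35 points (-5.20 to 2.60), and each interval included 0.

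Windows with a ratio under 0.48, called CpG-poor, made up 35.7% of members and 25.9% of shared promoter peaks, a difference of 9.86 points (7.79 to 12.0). At scores of 54 or more, again not matched for score, the shares were 27.7% and 21.9% (difference 5.83, 2.25 to 9.63). In the lower classes, from the lowest up, the difference was 4.10 (-1.74 to 9.82), 3.34 (-1.82 to 8.46) and 5.47 points (1.29 to 9.69). It was thus smaller within every score class than over all peaks. Seen from the promoter classes, a GFP peak was missing at 30.6% of CpG-rich (28.7 to 32.4), 28.7% of intermediate (27.3 to 30.2) and 39.9% of CpG-poor (38.0 to 41.8) SRCAP promoter peaks.

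The consensus of NRF1, a factor that binds GC-rich palindromes at promoters of many housekeeping and mitochondrial genes, was found in the 200 bp at the midpoint of 81 members (2.84%, 2.29 to 3.52). It was found in 111 shared promoter peaks (1.87%, 1.56 to 2.25), in 5 GFP-only promoter peaks (0.176%, 0.0754 to 0.412) and in 0.980% of windows at all annotated TSSs. The share in members exceeded that in shared peaks by 0.969 points (95% Newcombe interval 0.302 to 1.72) and that in GFP-only peaks by 2.67 points (2.07 to 3.35). The printed Snrnp70, Ylpm1 and Gpatch11 promoters scored 206, 176 and 102, and the members at Ccdc155 and Smg9, with scores of 130 and 113, complete the 5 of highest score. A match describes the letters in the window and does not show that the factor was bound.

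The NRF1 difference from shared peaks was also seen within CpG-rich and intermediate windows and within the upper score classes. In CpG-rich windows the consensus was in 50 of 723 members (6.92%, 5.28 to 9.00), in 62 of 1643 shared (3.77%, 2.95 to 4.81) and in 1 of 325 GFP-only promoter peaks (0.308%, 0.0543 to 1.72). In intermediate windows it was in 2.61%, 1.60% and 0.249% (difference from shared 1.01, 0.0590 to 2.20), and in CpG-poor windows in 0.196%, 0.326% and 0.0766%. By score class, members held it in 1.62, 2.05, 3.74 and 4.01% from the lowest to the highest class and shared peaks in 0.462, 0.933, 1.41 and 2.36%. The interval of the difference included 0 in both lower classes and excluded it in both upper ones, at 2.33 points (0.928 to 3.99) and 1.65 points (0.274 to 3.50). The highest class is open at the top, so scores are not matched within it. Within 500 bp of the midpoint, NRF1 matches lay at a median of 101.5 bp from it in members, 119 bp in shared and 267.5 bp in GFP-only peaks, and 25.0%, 20.5% and 3.37% of them lay within 50 bp.

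**Figure D3:**
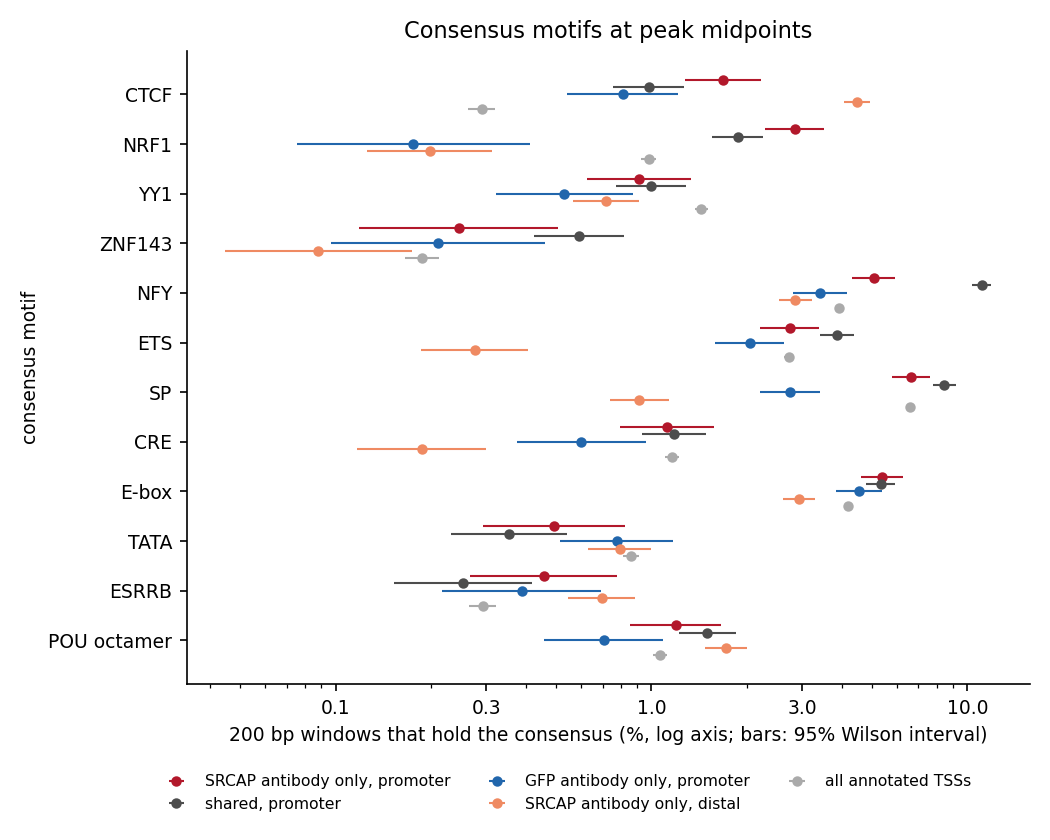
Percentage of 200 bp windows that hold each of 12 consensus sequences (x axis, log scale, with 95% Wilson intervals) at midpoints of SRCAP-only (red), shared (grey) and GFP-only (blue) promoter peaks, of distal SRCAP-only peaks (orange) and at all annotated TSSs (light grey). NRF1 is highest in SRCAP-only promoter peaks at 2.84%, CTCF in distal SRCAP-only peaks at 4.47%, and NFY in shared promoter peaks at 11.1%.

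CTCF, the DNA-binding protein of chromatin loop anchors, had its consensus in fewer members. Its consensus was in 48 members (1.68%, 1.27 to 2.23), 58 shared (0.979%, 0.758 to 1.26) and 23 GFP-only promoter peaks (0.812%, 0.541 to 1.21), in 4.47% of distal SRCAP-only peaks and in 0.290% of windows at annotated TSSs. The difference of members from shared promoter peaks was 0.705 points (0.205 to 1.29). Of the 48, 35 lay in CpG-poor windows, where the shares were 3.44% in members and 1.83% in shared peaks (difference 1.61, 0.363 to 3.03), and the interval of the difference included 0 in intermediate windows, at 0.721% and 0.945%, and in CpG-rich ones, at 0.692% and 0.243%. The members of highest score with the consensus were at Gosr1 (97), Dhx38 (90), Il17b (89), the window shared by Gm10447 and Shroom1 (82) and Trpv2 (79). Of the CTCF matches within 500 bp, 24 of 95 lay within 50 bp of the midpoint in members (25.3%, 17.6 to 34.8). In shared peaks it was 31 of 127 (24.4%, 17.8 to 32.6) and in GFP-only peaks 10 of 79 (12.7%, 7.02 to 21.8), with overlapping intervals.

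NF-Y, the trimeric factor that binds the CCAAT box, went the other way. Its consensus was in 144 members (5.05%, 4.31 to 5.92) and 657 shared promoter peaks (11.1%, 10.3 to 11.9), a difference of -6.04 points (-7.15 to -4.87). It was in 3.42% of GFP-only promoter peaks and 3.93% of windows at annotated TSSs. The difference was seen in CpG-rich (6.36% against 13.1%), intermediate (5.41% against 11.2%) and CpG-poor windows (3.73% against 8.75%). By score it was largest in the highest class, with 7.09% of members and 14.0% of shared peaks (difference -6.88, -8.97 to -4.40). That class does not match the sets by score, because member scores ended at 392 and shared scores at 39255. In the lowest class the difference was -2.43 (-5.03 to -0.275), while the intervals of both middle classes included 0. NF-Y matches lay within 50 bp of the midpoint in 20.2% of cases in members and 24.9% in shared peaks, with overlapping intervals.

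**Figure D4:**
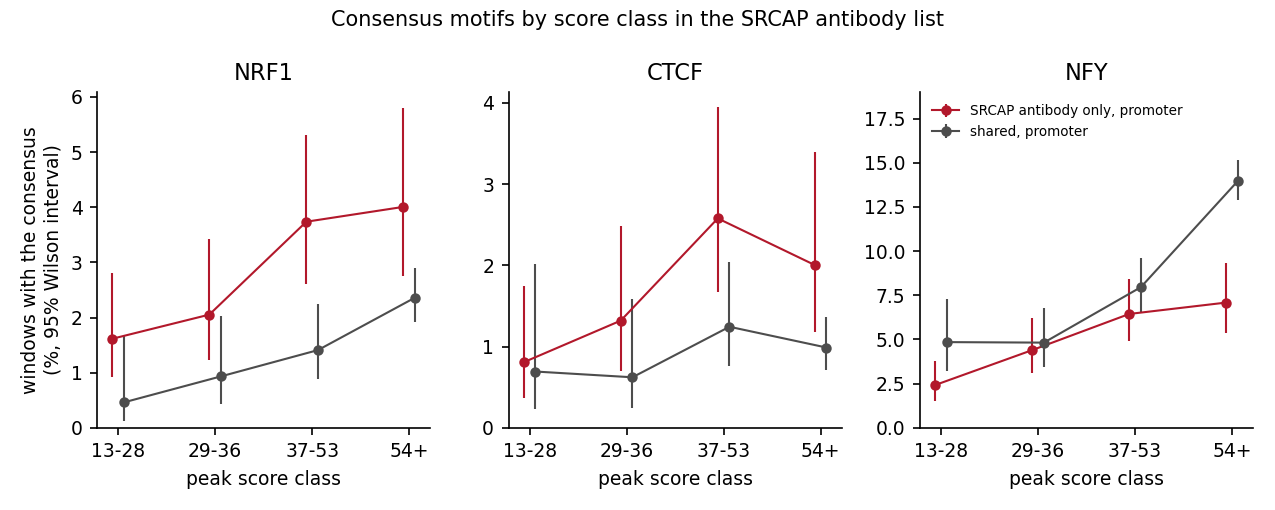
Percentage of 200 bp windows with the NRF1, CTCF and NFY consensus (y axes, 95% Wilson intervals) in 4 classes of the authors' score (x axes, cut at the quartiles of the SRCAP-only promoter peaks) for SRCAP-only (red) and shared (grey) promoter peaks of one list. NRF1 reaches 4.01% of SRCAP-only and 2.36% of shared peaks in the highest class, CTCF 2.00% and 0.988%, and NFY 7.09% and 14.0%. The highest class is open at the top, with scores up to 392 in SRCAP-only and 39255 in shared peaks.

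Among the other consensus sequences, ZNF143 was in 7 members (0.246%) and 35 shared promoter peaks (0.591%), a difference of -0.345 points (-0.607 to -0.0364). ETS (CCGGAAGT) was in 2.74% and 3.86%, and SP (GGGGCGGGG) in 6.63% and 8.44%. The intervals of both differences excluded 0 over all windows, at -1.13 points (-1.88 to -0.318) and -1.81 points (-2.94 to -0.619). Both changed sign in CpG-rich windows, to 0.558 points (-1.56 to 2.95) for ETS and 0.0539 points (-2.79 to 3.13) for SP. Against GFP-only promoter peaks, SP was more frequent in members, by 3.88 points (2.79 to 4.99). Windows at all annotated TSSs held ZNF143 in 0.188%, ETS in 2.72% and SP in 6.59%. The intervals of the difference from shared peaks included 0 for YY1 (AAGATGGCG), the POU octamer (ATTTGCAT), ESRRB (TCAAGGTCA), CRE (TGACGTCA), the core promoter element of TATA-binding protein (TATAAAAG) and the E-box (CACGTG). In members these were in 0.912, 1.19, 0.456, 1.12, 0.491 and 5.37% of windows, and at all annotated TSSs in 1.44, 1.06, 0.292, 1.16, 0.860 and 4.19%. All 12 were searched on both strands and none contains another.

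Genes of developmental transcription factor families (Hox, Pax, Lhx, Nkx, Gata, Tbx, Fox, Irx, Sox, Dlx, Meis and sine oculis homologues, by gene symbol) showed members more often than shared peaks, the reverse of the order over all genes. Of 173 such genes, 28 had a member (16.2%, 11.4 to 22.4) and 16 a shared promoter peak (9.25%, 5.77 to 14.5), against 11.5% and 25.8% of all protein-coding genes. Of the 43 with any SRCAP promoter peak, 27 had no shared one (62.8%, 47.9 to 75.6), against 27.7% (26.7 to 28.7) over all genes. The 31 member peaks had a median score of 35 and a range of 16 to 97, with 14 above the median of all members, 36.5, and 1 of them had a GFP peak within 1 kb. With SRCAP peaks scoring under 47 left out, the share without shared peak was 27.3% (9.75 to 56.6) against 17.1% of all genes, and the interval included that value.

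Examples, chosen after their values were seen, are Pax6, the regulator of eye and forebrain development, with members at separate TSSs on chromosome 2 that scored 35 and 40, and Tbx20, a regulator of heart development, with 35 and 45 on chromosome 9. Pax6 also had a GFP promoter peak, and the GFP peaks nearest to its members lay 8829 and 2051 bp away. Meis3, a homeobox gene, had the highest score of the group, 97, with its midpoint 52 bp upstream of the TSS. Sox9, the regulator of cartilage development, had a score of 22 with its midpoint 74 bp downstream of the TSS, and its nearest GFP peak lay 57874 bp away.

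**Figure D5:**
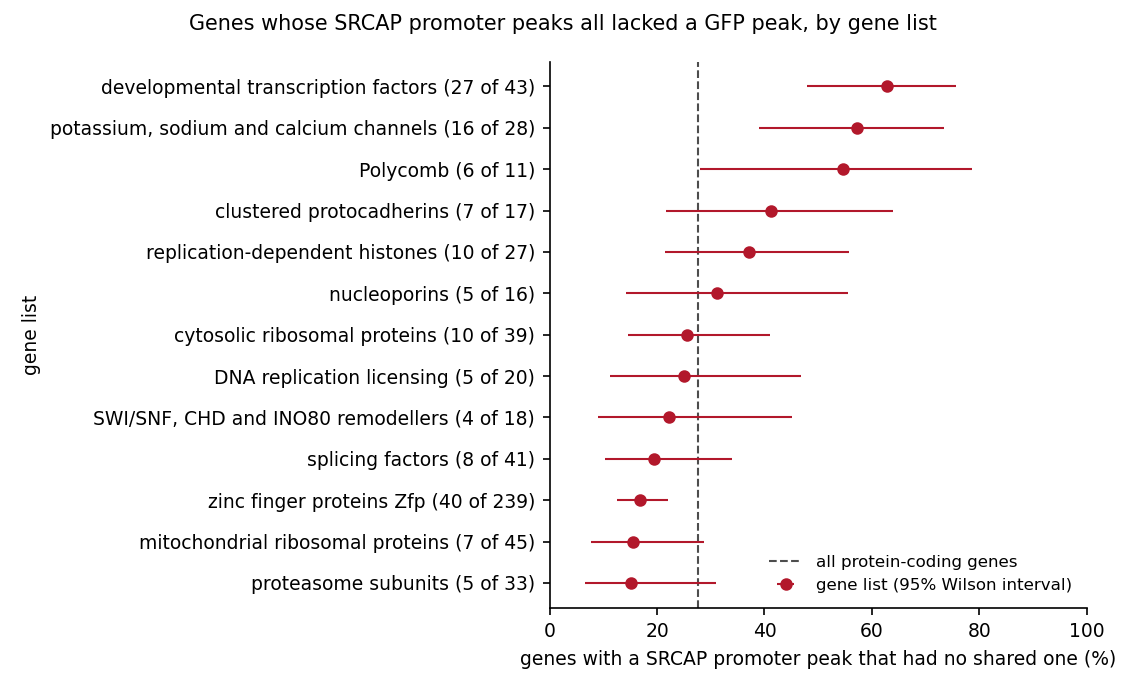
Percentage of genes with a SRCAP promoter peak that had no shared one (x axis, 95% Wilson intervals), for the gene lists with at least 10 such genes (y axis, counts in brackets), where the dashed line marks all protein-coding genes at 27.7%. Developmental transcription factors lie above it at 62.8% and zinc finger genes named Zfp below it at 16.7%.

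Ion channel genes (potassium, sodium and calcium) also lay above the value of all genes. Members lay at 16 of 123 and shared promoter peaks at 12, and of 28 with any SRCAP promoter peak 16 had no shared one (57.1%, 39.1 to 73.5). Zinc finger genes named Zfp lay on the other side, with 40 of 239 without shared peak (16.7%, 12.5 to 22.0). They had a member at 49 of 394 (12.4%, 9.54 to 16.1, which includes the 11.5%) and a shared promoter peak at 199 (50.5%). The intervals of proteasome subunits (5 of 33), mitochondrial ribosomal proteins (7 of 45), splicing factors (8 of 41), cytosolic ribosomal proteins (10 of 39), nucleoporins (5 of 16), clustered protocadherins (7 of 17) and replication-dependent histones (10 of 27) all included the value of all genes. Histone genes, clustered protocadherins and Zfp genes are families of similar copies whose reads can map to several copies, so their counts are uncertain. Olfactory receptors had a member at 2 of 1135 genes and vomeronasal receptors at 0 of 327 (upper Wilson limit 1.16%).

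Polycomb genes, which encode the complexes that write and read H3K27 methylation and H2A ubiquitination, had members at 6 of 32 genes (18.8%, 8.89 to 35.3), an interval that includes the 11.5% over all genes. None of the 6 genes with a member also had a shared or a GFP promoter peak, which held for 74.0% of all genes with a member. These were Pcgf3 (score 121), Pcgf1 (67), Ezh1 (59), Cbx8 (48), Cbx6 (40) and Cbx2 (23). Pcgf1 and Pcgf3 encode subunits of variant PRC1, Ezh1 a methyltransferase of PRC2, and the Cbx genes the chromodomain readers of canonical PRC1. Of 11 Polycomb genes with any SRCAP promoter peak, these 6 (54.5%, 28.0 to 78.7) had no shared one, against 27.7% over all genes, just under the lower limit. Their midpoints lay between 172 bp upstream and 126 bp downstream of the TSS.

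Chromatin remodeller genes of the SWI/SNF, CHD and INO80 families had members at 7 of 31 genes (22.6%, 11.4 to 39.8). That interval just includes the 11.5% over all genes. The other sets were also frequent at these genes. Shared promoter peaks lay at 14 (45.2%, against 25.8% over all genes) and GFP-only ones at 10 (32.3%, 18.6 to 49.9, against 11.2%). Of the 7 genes, Smarca4 (score 72), the ATPase of the BAF complex, and Smarce1 (47) had no other promoter peak of either antibody. Smarca5, Smarcc1 and Chd9 also had shared promoter peaks, and Smarcb1 and Chd2 also had GFP promoter peaks. Of 21 genes for the licensing and initiation of DNA replication, 5 had members (23.8%, 10.6 to 45.1, which includes the 11.5%) and 15 had a shared promoter peak. Gins3, a subunit of the replicative helicase, scored 139 and Cdc6, a helicase loader, 106, with midpoints 37 bp downstream and 16 bp upstream of the TSS and GFP peaks more than 10 kb away. Mcm2 scored 23, Gmnn 40 with a GFP peak 305 bp away, and Cdt1 59 and 31.

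For the genes of the remodeller's own pathway, counts were too small to be set apart from the 11.5% over all genes. Of 9 genes of the SRCAP complex, Ruvbl2, an AAA+ ATPase subunit, had a member with a score of 73, beside a shared promoter peak (11.1%, 1.99 to 43.5), and 7 had a shared promoter peak. None of 3 genes for H2A.Z and its chaperone had a member, and of 12 genes of the related TIP60-p400 complex, which also deposits H2A.Z, Mrgbp had one with a score of 96 (8.33%, 1.49 to 35.4). Members lay at 2 of 25 pluripotency genes, Sall4 (score 79) and Tfcp2l1 (40, with a GFP peak 258 bp away), at 1 of 15 CTCF and cohesin genes, Smc3 (34), and at 0 of 17 genes for H3K4 and H3K27 methylation. The numbers of genes in these lists are small, and the Wilson intervals of 2 of 25 and 0 of 17 (upper limits 25.0% and 18.4%) include the 11.5% over all genes.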

How the data were processed

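Both libraries of SYAT mESC were analysed, 1 per antibody, so peaks had no replicate check and no p-value is given. Per the labels, 100000 cells were fixed in 0.1% formaldehyde for 5 min, and inserts of about 250 bp were sequenced as paired 75 nt reads. The deposited files are peak lists with a score, a whole number of at least 13 that the authors gave each peak. The meaning of the score is not given in the sources used here. The study's methods describe MACS2 calling on paired fragments, without naming CUT&RUN there. Its reporting summary adds, for ChIP-seq, an input control and a q-value of 0.05, and also mentions a stricter threshold. The control and the threshold for these lists are therefore not known. The submitters' processing notes name STAR, Picard and MACS2 and the builds mm10 and dm6, without roles. Titles mark both libraries as CUT&RUN, although the methods of the study mention that assay for SRCAP antibody alone. For the GFP antibody ab290 in SYAT cells, they describe a different assay, CUT&Tag, done in duplicate.

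Overlap was computed in Python 3.11.15 (numpy 2.4.6, pandas 2.3.3, scipy 1.17.1) and checked with bedtools 2.31.1. Windows of 500 bp for CpG content and 200 bp for consensus sequences were read with pysam 0.24.0 from the RefSeq copy of GRCm38. No blacklist was applied. The score floor can turn a weak signal of the GFP antibody into a missing peak. Shares carry 95% Wilson intervals, differences Newcombe intervals and medians order-statistic intervals. The scripts were tested on simulated data.

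Named genes are the 15 coding members of highest score, members at promoters of the 9 gene lists, the 5 of highest score with a CTCF or NRF1 consensus, the 3 of smallest gap and the genes with most members, of which some are not reported here. Members of 14 gene families found by symbol are given as counts, with examples chosen after their values were seen. The members and lists were chosen with earlier results of these data known. The 8 alternatives varied overlap, window, transcripts, score and CpG class.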

Additional observations from a re-analysis of the deposited data

How the results depend on the processing

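Of 131 values recomputed under 8 alternatives, 53 moved by less than their interval or, for counts, by less than 1.5 times. Another 74 moved more and 4 changed sign. A change of sign was counted only for differences whose main interval excluded 0. Other changes of sign, as for CRE and YY1 in CpG-rich windows, are held in the 53 and the 74. With SRCAP peaks under the median score left out, there were 1014 members at 955 genes, 19.2% of promoter peaks lacked a GFP peak, 21.6% of member genes had a GFP promoter peak, 14.1% of members had a GFP peak within 1 kb and the median score was 60. CpG-rich members were then 31.3% (1.50 points above shared, a change of sign), genes without shared peak 27.3% of developmental factors and 17.1% of all genes, and 3 consensus differences had intervals without 0 (NRF1 2.34 and CTCF 1.46 points), while ETS changed sign to 0.269. Counting GFP peaks under 500 bp away as shared gave 28.8% without GFP peak, 16.3% of member genes with a GFP promoter peak and 25.0% of all genes without shared peak. Requiring 50% reciprocal overlap gave 47.9%, 49.0% and 42.7% for the same values, 43.6% with a GFP peak within 1 kb, a median score of 40 and a CpG-rich difference of -0.231. Coding transcripts alone gave 30.4% without GFP peak, 20.4% of genes with a GFP promoter peak, a median distance of -73 bp, 31.6% CpG-rich and a difference of -0.235. A window of 2500 bp either side gave 4294 members, 36.6%, 41.1%, 15.3% within 1 kb, a median score of 34, -26 bp, 17.7% CpG-rich and a difference of -4.84. In 500 bp windows the NFY difference was -9.18. In CpG-rich windows 2 consensus differences had intervals without 0, NRF1 differed by 3.14, and ETS (0.558) and SP (0.0539) changed sign. The cause was not tested. The values for developmental factors and for all genes were added after seeing the data, as alternatives. No paired analysis was possible because there was 1 library for either antibody.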
